A study of Mus musculus with 92 samples.

Results

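The rows described here are 4 of the 7886 rows of a table of read counts from single mouse blastomeres: 3 ribosomal RNA (rRNA) rows and 1 row known only by its identifier. The rRNA rows were CT010467.1 (ENSMUSG00000106106.2), which carries the sequence of the small-subunit rRNA of the cytosolic ribosome, mt-Rnr1 (ENSMUSG00000064337.1) and mt-Rnr2 (ENSMUSG00000064339.1), the small- and large-subunit rRNAs of the mitochondrial ribosome. The other row was ENSMUSG00000118642.1, which matched no symbol in the gene tables used here (GENCODE M21 and RefSeq). They were chosen by measured values, the share of reads they took and their level in each microRNA group relative to the control. Their differences from the control are therefore given as descriptions with no test, and tests are given only between the 3 groups injected with microRNA. Those tests draw on the same microRNA levels by which the rows were chosen, so they are not independent of the choice.

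The blastomeres came from 8-cell embryos of wild-type C57BL/6N mice, and the sample titles of all groups begin with IVF, in vitro fertilisation. Every group had been microinjected as zygotes. The NC group received a negative control, Let7d and Let7e received the mimics of let-7d and let-7e, and the last group a microRNA that the labels write mi699a-5p. The NC group held 22 blastomeres from 3 mouse ids, Let7d 18 from 3, Let7e 20 from 4 and mi699a-5p 21 from 4. The mouse ids held 2 to 8 blastomeres each, the fewest in Let7e. A mouse id is written here as its group and number, as in NC 1. The labels do not say whether it stands for an embryo, a dam or a donor, and no group shared a mouse id with another, so anything handled apart by group cannot be told apart from the injection.

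Cytosolic rRNA is made in the nucleolus by RNA polymerase I from repeated genes, and small nucleolar ribonucleoproteins guide its cutting and modification. The mitochondrial rRNAs are made from the mitochondrial genome by a separate polymerase, in long transcripts that also carry mRNAs and tRNAs and are cut apart at the tRNAs. Most cytosolic rRNA has no poly(A) tail, whereas mammalian mitochondrial rRNAs carry short adenine tails. Smart-seq2, which was used here in a custom form, starts cDNA from oligo(dT) at runs of adenine, attaches no molecular identifiers and keeps no strand, so a count is a read and includes amplification copies.

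The injected let-7 sequences are shown because the pair share a seed, bases 2 to 8, which guides pairing to targets. The seed is in capitals, and the sequences and positions are those of RefSeq on GRCm38.p6.
mmu-let-7d-5p (chr13:48536078-48536099, minus strand): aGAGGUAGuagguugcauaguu
mmu-let-7e-5p (chr17:17830366-17830387, plus strand): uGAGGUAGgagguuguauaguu
Counted from the 5′ end, the mature sequences differed at 3 of 22 bases: A1U, U9G and C16U, with the let-7d base first. None of these lies in the seed.

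CT010467.1 lies at chr17:39846353-39848827 on the minus strand in GENCODE M21 (GRCm38), and its type is rRNA. Its first transcript, 1849 bases long with 55.4% G and C, is shown at its start on each strand because the strand bears on what the row counts.
CT010467.1, annotated strand (chr17:39848172-39848201, minus): taatgatccttccgcaggttcacctacgga
CT010467.1, opposite strand (chr17:39846353-39846382, plus): tacctggttgatcctgccagtagcatatgc
The opposite strand begins with the well-known first bases of the eukaryotic small-subunit rRNA, so the annotated strand is the complement of the mature rRNA. Gm42418, annotated on the plus strand of the same locus, shared an unbroken run of 1244 bases with that opposite strand. AY036118 shared its whole length of 923 bases with the annotated strand. Neither gene was analysed here, and the rRNA genes repeated elsewhere in the genome share this sequence, so CT010467.1 is read as cytosolic rRNA reads that were assigned to this locus.

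The mitochondrial rows lie on the plus strand of the mitochondrial genome, mt-Rnr1 at chrM:70-1024 (955 bases, 35.8% G and C) and mt-Rnr2 at chrM:1094-2675 (1582 bases, 35.4%). The complement of the let-7 seed, CTACCTC, was searched on both strands of the 3 transcripts. It occurred once in the CT010467.1 transcript and once in mt-Rnr1, both on the annotated strand, and not in mt-Rnr2. The matches are shown in capitals.
CT010467.1, position 1330 (chr17:39846855-39846883, minus): atttttcgtcaCTACCTCcccgggtcggg
mt-Rnr1, position 580 (chrM:638-666, plus): taaaccccgctCTACCTCaccatctcttg
Of all GENCODE transcripts within 10% of the same length, 14.8% held the motif at the length of the CT010467.1 transcript and 6.65% at the length of mt-Rnr1. In CT010467.1 the match is on the strand that mature rRNA does not have. Runs of 6 or more adenines, AAAAAA, are shown because the cDNA starts at adenine runs. They occurred at 4 positions of mt-Rnr2, and none was found in mt-Rnr1 on either strand.
mt-Rnr2, position 361 (chrM:1443-1470, plus): gctggttacccAAAAAAtgaatttaagt
mt-Rnr2, position 395 (chrM:1477-1504, plus): ttaaacttgctAAAAAAacaacaaaatc
mt-Rnr2, position 463 (chrM:1545-1572, plus): ttctggaacggAAAAAAcctttaatagt
mt-Rnr2, position 1177 (chrM:2259-2286, plus): cctcggagaatAAAAAAtcctccgaatg
CT010467.1, opposite strand, position 815 (chr17:39847156-39847183, plus): cgtttactttgAAAAAAttagagtgttc
Such a run was present in 46.2% of GENCODE transcripts within 10% of the length of mt-Rnr2, 26.8% at that of mt-Rnr1 and 48.9% at that of the CT010467.1 transcript. A match is a description of the letters only.

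Counted reads per blastomere ranged from 1575609 to 4950404, with a median of 2736612, and 5562 to 7497 genes were detected in each. Of 15 markers of preimplantation blastomeres, 14 had a row, none was at 0 in any group, and their summed level over mouse ids ran from 6939 to 10374 RPM (reads per 1000000 counted reads). Of 12 cumulus and granulosa markers only Nr5a2, which embryos also express, had a row, and no sperm, blood, skin or stromal marker had one. The label of the counts says that rows were filtered by expression level before deposit. A missing row therefore does not show that a marker had no reads. A pair of Let7d 2 columns, wells F2 and G2, agreed within sampling noise and were counted as 1 blastomere, which left 81. Other blastomeres stood apart in the followed rows. Let7e wells C2 and D2 were very low in CT010467.1, NC wells E2 and E3 were very high in ENSMUSG00000118642.1, and Let7e D1 and H1, mi699a-5p E1 and F1 and NC H2 were high in the mitochondrial rRNAs. Values without them are given beside some of the results they touch.

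CT010467.1 was the most abundant row of the table and mt-Rnr2 the next, whereas mt-Rnr1 ranked 32 and ENSMUSG00000118642.1 ranked 2771. The 3 rRNA rows together took 13.3% ± 3.55 (SD, n = 3 mouse ids) of counted reads in NC and 5.92% ± 2.61 (n = 3) in Let7d. In mi699a-5p they took 9.96% ± 1.98 (n = 4), and 8.72% ± 3.72 (n = 4) in Let7e. Every Let7d mouse id lay below every NC mouse id, with Let7d between 3.68% and 8.79% and NC between 9.24% and 15.9%. This rested on NC well E2, which was set apart after seeing the data. Without it NC 2 held 6.14% CT010467.1, 0.296% mt-Rnr1 and 1.76% mt-Rnr2. Together these lie below the 8.79% of Let7d 1, so the ranges of NC and Let7d then overlapped. The ranges of Let7e and mi699a-5p overlapped that of NC. Depth also differed between groups. Let7d was deepest and had the lowest share, and Let7e came next in both. NC and mi699a-5p did not follow this inverse order. The mean reads per blastomere were 3395103 in Let7d, 3004148 in Let7e, 2526101 in NC and 2216581 in mi699a-5p, and the part of depth in the result was not tested.

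CT010467.1, the cytosolic rRNA row, was highest in NC and lowest in Let7d on average. It held 12.4% of counted reads in NC 1, 7.13% in NC 2 and 13.7% in NC 3. In Let7d it held 7.28%, 3.74% and 2.75% in mouse ids 1 to 3. Only Let7d 1 reached into the range of NC, just above NC 2. In Let7e it held 10.9%, 4.45%, 7.32% and 4.96% in mouse ids 1 to 4. In mi699a-5p it held 10.3%, 8.49%, 7.20% and 6.93%. The mi699a-5p values lay closest together, all within the range spanned by Let7e. Relative to NC, the log2 fold change from the counts summed per mouse id was -1.40 ± 0.38 (SE) in Let7d, -0.46 ± 0.35 in mi699a-5p and -0.71 ± 0.35 in Let7e.

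**Figure D1:**
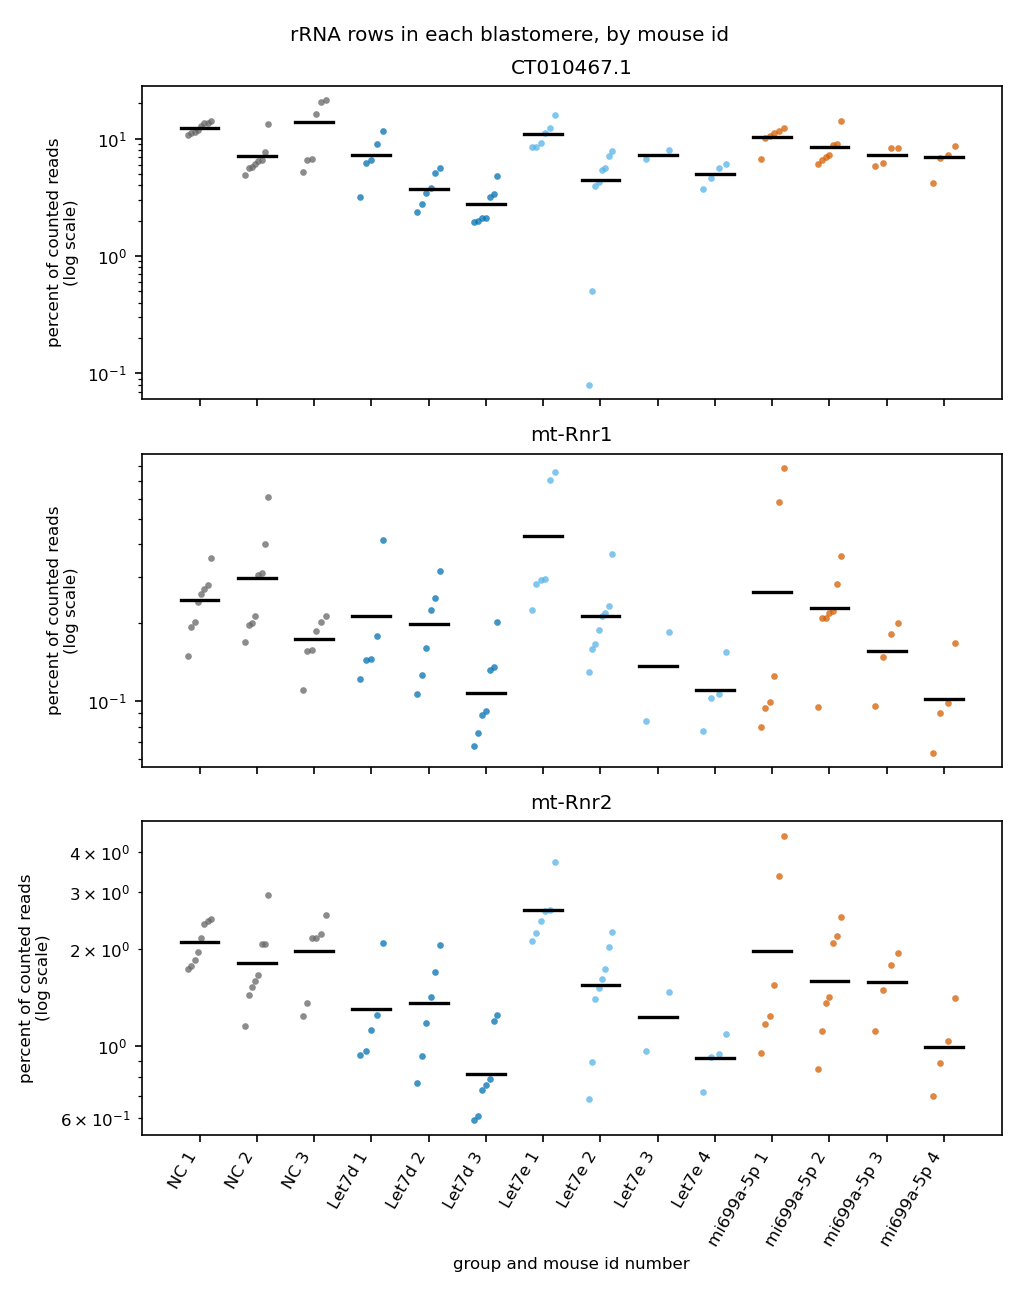
Each point is 1 blastomere and each black bar the share in the summed reads of its mouse id. The vertical axes give the percent of counted reads on log scales, for CT010467.1, mt-Rnr1 and mt-Rnr2 from top to bottom. A pair of Let7e 2 blastomeres sits far below the rest for CT010467.1, at 0.0794% and 0.502%, and pairs of blastomeres in Let7e 1 and mi699a-5p 1 sit above their mouse ids for mt-Rnr1.

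Blastomeres of 1 mouse id could differ in CT010467.1 as much as groups did. In NC 1 the highest of 8 blastomeres exceeded the lowest 1.32-fold, from 10.66% to 14.02%. In NC 3 the 6 blastomeres spread from 5.21% to 21.2%, 4.07-fold. In Let7e 2 the 8 blastomeres spread 97.9-fold, from 0.0794% in well C2 to 7.77%. Well C2 also had the fewest genes detected of all blastomeres, 5562, whereas well D2, at 0.502% CT010467.1, had 6965. Without these wells Let7e 2 rose from 4.45% to 5.67%, and the fold change against NC was -0.64 ± 0.33. Of the variation in the log2 level of CT010467.1, 22.5% lay between groups, 26.0% between mouse ids of a group and 51.5% between blastomeres of a mouse id. That split was computed with all wells kept, C2 and D2 included, here and for the rows below. How much of it rests on those wells was not computed.

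mt-Rnr1, the small-subunit mitochondrial rRNA, showed no separation of the groups. Its share was 0.245%, 0.298% and 0.174% in NC 1 to 3 and 0.212%, 0.198% and 0.108% in Let7d 1 to 3. It was 0.429%, 0.212%, 0.137% and 0.111% in Let7e 1 to 4, and 0.263%, 0.228%, 0.157% and 0.102% in mi699a-5p 1 to 4. All 4 ranges overlapped. The mouse ids numbered 1 or 2, from any group, lay between 0.198% and 0.429%, and those numbered 3 or 4 between 0.102% and 0.174%, with no overlap. The labels do not say what the number marks, but the digit of the well name followed it. It was 1 for ids numbered 1, 2 for ids numbered 2, and 3 for ids numbered 3 or 4. The split of mt-Rnr1 by number was thus also a split by well digit. That split was not planned, and the share of all rows that split in the same way was not computed, so nothing particular to mt-Rnr1 is read from it. Against NC the log2 fold change was -0.57 ± 0.43 in Let7d, -0.34 ± 0.40 in mi699a-5p and -0.09 ± 0.40 in Let7e, the Let7e value taking the other sign when NC 2, Let7e 3 or Let7e 4 was left out. Without the 5 wells high in mitochondrial rRNA the Let7e value was -0.30 ± 0.33.

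A few blastomeres carried much of mt-Rnr1 in some mouse ids. In mi699a-5p 1 the 6 blastomeres spread 9.85-fold, from 0.0799% to 0.786%. Wells F1 and E1, at 0.786% and 0.584%, were the high ones, and without them the mouse id fell from 0.2632% to 0.09996%. Let7e wells H1 and D1 stood at 0.760% and 0.704%, and without them Let7e 1 fell from 0.429% to 0.273%. Between groups lay 9.13% of the variation in log2 level, against 33.2% between mouse ids and 57.7% between blastomeres.

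mt-Rnr2, the large-subunit mitochondrial rRNA, was lower in every Let7d mouse id than in every NC mouse id. It held 2.102%, 1.81% and 1.97% of counted reads in NC 1 to 3, and 1.31%, 1.36% and 0.822% in Let7d 1 to 3. The NC values were the tightest of any group, and the lowest of them exceeded the highest of Let7d. It held 2.65%, 1.54%, 1.23% and 0.921% in Let7e 1 to 4, and 1.98%, 1.59%, 1.58% and 0.994% in mi699a-5p 1 to 4. These ranges overlapped that of NC, Let7e 1 being above all NC mouse ids. Without the 5 wells high in mitochondrial rRNA, mi699a-5p 1 fell to 1.23%, NC 2 to 1.66% and Let7e 1 to 2.36%. Every mi699a-5p mouse id was then below every NC mouse id, whereas Let7e 1 stayed above them. Those wells were chosen after seeing the data, for being high in the rRNAs compared here. The removal left 4 blastomeres in mi699a-5p 1 and 7 in NC 2. The share of all rows that separate under it was not computed, so nothing is read from this separation. Against NC the log2 fold change was -0.87 ± 0.33 in Let7d, -0.37 ± 0.31 in mi699a-5p and -0.31 ± 0.31 in Let7e.

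Per base of annotated length, mt-Rnr2 exceeded mt-Rnr1 in every mouse id, by 3.66 to 6.83 times with a median of 4.56. In RPM per kilobase of annotated length, mt-Rnr2 averaged 12381 ± 933 (SD, n = 3) in NC and 7347 ± 1872 (n = 3) in Let7d, and mt-Rnr1 2503 ± 652 and 1809 ± 592. In counts, the ratio of mt-Rnr2 to mt-Rnr1 reads averaged 8.65 ± 2.63 in NC, 8.57 ± 1.56 in mi699a-5p, 7.68 ± 1.23 in Let7e and 6.87 ± 0.723 in Let7d. The ranges of all 4 groups overlapped in this balance of the mitochondrial rRNAs.

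The 7 mitochondrially encoded mRNAs with a row were lower on average in Let7d than in NC, as mt-Rnr2 was. They are mt-Nd1, mt-Nd2, mt-Nd4, mt-Nd5 and mt-Nd6 of respiratory complex I, mt-Co1 of cytochrome c oxidase and mt-Cytb of the cytochrome bc1 complex. All 7 had a log2 fold change below 0 in Let7d against NC, with a median of -0.75, where the median over all rows was 0.01. Together they took 3.76% ± 0.304 (SD, n = 3) of counted reads in NC and 2.43% ± 0.562 (n = 3) in Let7d. In mi699a-5p the share was 3.84% ± 0.948 (n = 4), and in Let7e 4.12% ± 1.28 (n = 4).

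The ratio of mitochondrial rRNA reads to mitochondrial mRNA reads was 0.582, 0.614 and 0.560 in NC 1 to 3, and 0.570, 0.549 and 0.519 in Let7d 1 to 3. Let7d thus lay close to NC, with a mean 0.932 times that of NC. The ratio was 0.521, 0.453, 0.475 and 0.269 in Let7e 1 to 4. All 4 Let7e mouse ids were below every NC mouse id. It was 0.662, 0.371, 0.402 and 0.396 in mi699a-5p 1 to 4, so mi699a-5p 1 was above all NC mouse ids and the other 3 below them. That high value went with well F1, whose ratio of 2.22 was the highest of all 81 blastomeres.

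**Figure D2:**
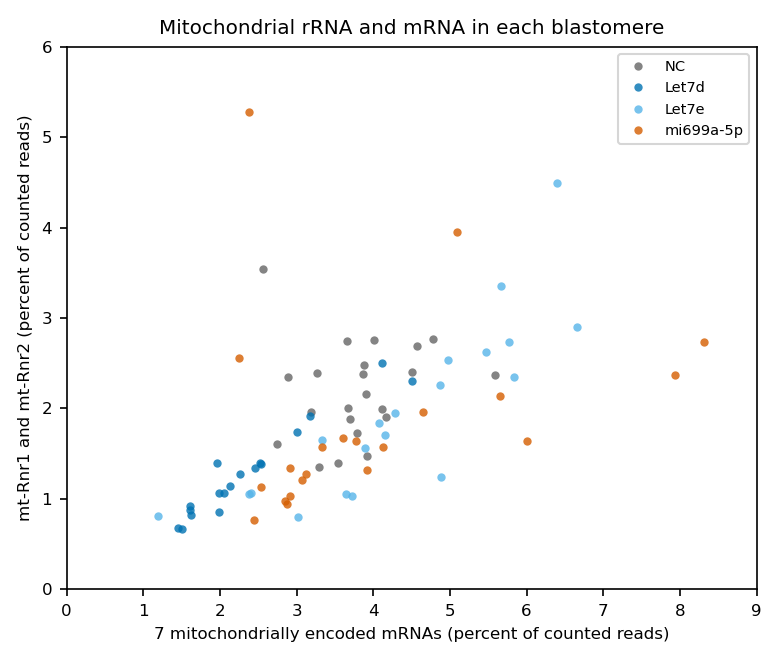
Each point is 1 blastomere, coloured by group, with the summed share of the 7 mitochondrial mRNAs on the horizontal axis and that of mt-Rnr1 and mt-Rnr2 on the vertical axis, both as percent of counted reads. Let7d points lie toward the lower left. The mi699a-5p blastomere at 5.28% rRNA and 2.37% mRNA lies apart from the others.

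ENSMUSG00000118642.1 had the largest fold difference from NC of the 4 rows in each microRNA group. It stood at 158.0 RPM in NC 1, 158.0 in NC 2 and 256 in NC 3. In Let7d 1 to 3 it stood at 29.2, 50.4 and 20.1 RPM. Every Let7d mouse id was below every NC mouse id. It stood at 75.6, 88.5, 81.4 and 94.9 in Let7e 1 to 4, and at 48.3, 41.8, 77.2 and 25.9 in mi699a-5p 1 to 4. All mouse ids of these groups were below NC as well, and the Let7e values were the most even, 85.1 ± 8.39 (SD, n = 4). Let7e 3 is the sum of only 2 blastomeres, at 34.3 and 124 RPM. The log2 fold change against NC was -2.65 ± 0.40 in Let7d, -2.02 ± 0.36 in mi699a-5p and -1.19 ± 0.35 in Let7e.

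These comparisons chose the row, so nothing is read from its rank in them. In Let7d against NC, 2 of the 4 rows (mt-Rnr2 and ENSMUSG00000118642.1) had all mouse ids lower, as had 3.87% of all rows. In Let7e against NC and in mi699a-5p against NC it was 1 of the 4 rows, ENSMUSG00000118642.1, against 2.47% and 3.69% of all rows. At an adjusted p under 0.05 (edgeR's quasi-likelihood test, Benjamini-Hochberg), 0.0127% of rows were called in Let7d against NC and 0% in Let7e and in mi699a-5p against NC. The unadjusted p was under 0.05 in 370, 317 and 434 rows, and DESeq2 called 3, 0 and 6.

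The NC level of ENSMUSG00000118642.1 rested in part on single blastomeres. Well E3 of NC 3 held 775 RPM and well E2 of NC 2 held 634, while NC well A2 held 4.98. The next highest blastomere was at 224 in NC 3 and at 161 in NC 2. Without wells E2 and E3, NC 2 fell to 82.8 and NC 3 to 147 RPM, and the NC mean from 191 ± 56.6 to 129 ± 40.6 (SD, n = 3). NC 2 was then still above all mouse ids of Let7d and mi699a-5p but within the range of Let7e. The log2 fold changes against NC became -2.09 ± 0.41 in Let7d, -1.46 ± 0.37 in mi699a-5p and -0.63 ± 0.37 in Let7e, and edgeR called 0 rows in Let7d against NC in place of 1.

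**Figure D3:**
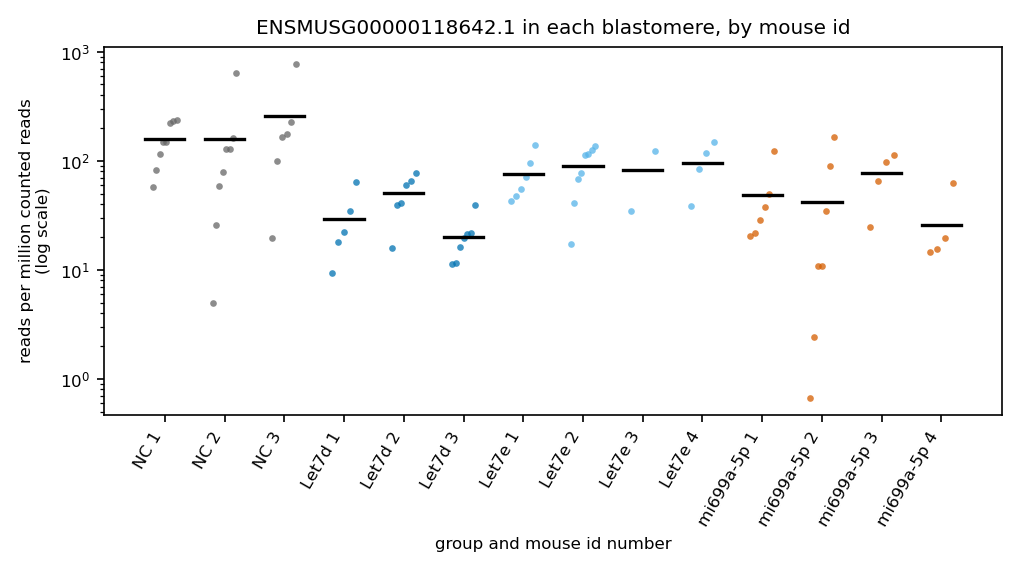
Each point is 1 blastomere and each black bar the level in the summed reads of its mouse id, in RPM on a log scale. The NC bars, at 158.0 to 256, lie above all others, and the NC blastomeres at 634 and 775 and the mi699a-5p blastomere at 0.667 are the extremes.

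ENSMUSG00000118642.1 was detected in every blastomere, but its level varied widely within mouse ids. The median over blastomeres was 138 RPM in NC, 80.2 in Let7e, 28.6 in mi699a-5p and 21.9 in Let7d, in the same order as the mouse id means. In mi699a-5p 2 the 7 blastomeres ran from 0.667, which was 2 reads in well B2, to 164. In Let7d the 18 blastomeres stayed between 9.29 and 77.0. Between blastomeres of a mouse id lay 58.3% of the variation in log2 level, with 30.7% between groups and 10.96% between mouse ids. Over genes detected in at least 50% of blastomeres the medians were 79.7%, 4.64% and 14.8%. The row was chosen by its level in the groups, so its higher share between groups is not read as a result. Relative to CT010467.1 in the same libraries, it gave 1.78 ± 0.474 reads per 1000 in NC, 1.43 ± 0.629 in Let7e, 0.827 ± 0.480 in Let7d and 0.601 ± 0.318 in mi699a-5p.

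Between let-7e and let-7d, which share their seed, none of the 4 rows passed the test, and all 4 had a value above 0 in Let7e against Let7d with all mouse ids. ENSMUSG00000118642.1 had the largest difference, with a log2 fold change of 1.46 ± 0.37 and a 95% interval of 0.68 to 2.24. All 4 Let7e mouse ids were above all 3 Let7d mouse ids, as in 2.13% of all rows, but the adjusted p of edgeR's quasi-likelihood test was 0.845. Over the alternatives its adjusted p ran from 0.0720 to 0.996. CT010467.1 differed by 0.69 ± 0.35 (-0.05 to 1.43), mt-Rnr2 by 0.56 ± 0.31 (-0.09 to 1.21) and mt-Rnr1 by 0.47 ± 0.41 (-0.38 to 1.33). The adjusted p by edgeR was 0.946, 0.951 and 0.953. The mt-Rnr1 value was -0.078 without Let7e 1 and 0.19 ± 0.33 without the 5 wells high in mitochondrial rRNA. In this comparison edgeR called 0 of 7886 rows (0%), 425 had an unadjusted p under 0.05, and DESeq2 called 8, none of them among the 4 rows. These intervals also hold sizable differences, so the test does not show that the groups were alike.

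Against Let7d, mi699a-5p also had values above 0 for all 4 rows with all mouse ids, and none passed. CT010467.1 differed most, by 0.93 ± 0.36 on the log2 scale (95% interval 0.19 to 1.68), with an adjusted p of 0.948 by edgeR. The mi699a-5p and Let7d ranges overlapped for this row, 2 of 4 mi699a-5p mouse ids being above all of Let7d. ENSMUSG00000118642.1 differed by 0.64 ± 0.36 (-0.12 to 1.40), mt-Rnr2 by 0.50 ± 0.31 (-0.15 to 1.15) and mt-Rnr1 by 0.22 ± 0.41 (-0.63 to 1.08), each with an adjusted p of 0.999. The mt-Rnr1 value was -0.053 without Let7d 3 and -0.035 without mi699a-5p 1. Here edgeR called 0% of rows, 395 rows had an unadjusted p under 0.05, and DESeq2 called 8, none of them among the 4.

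Against Let7e, mi699a-5p had a lower ENSMUSG00000118642.1 value and rRNA values near 0. The log2 fold change of ENSMUSG00000118642.1 was -0.82 ± 0.33 (95% interval -1.52 to -0.12, adjusted p = 0.670 by edgeR), and 3 of 4 mi699a-5p mouse ids were below all of Let7e. For CT010467.1 it was 0.24 ± 0.32 (-0.43 to 0.92), for mt-Rnr1 -0.25 ± 0.38 (-1.04 to 0.54) and for mt-Rnr2 -0.06 ± 0.28 (-0.65 to 0.54), with adjusted p-values of 0.934, 0.942 and 0.993. The mitochondrial values took the other sign without Let7e 1, at 0.30 for mt-Rnr1 and 0.32 for mt-Rnr2. Without the 5 wells high in mitochondrial rRNA they were -0.35 ± 0.30 and -0.19 ± 0.25. edgeR called 0% of rows, 557 had an unadjusted p under 0.05, and DESeq2 called 20, none of them among the 4.

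**Figure D4:**
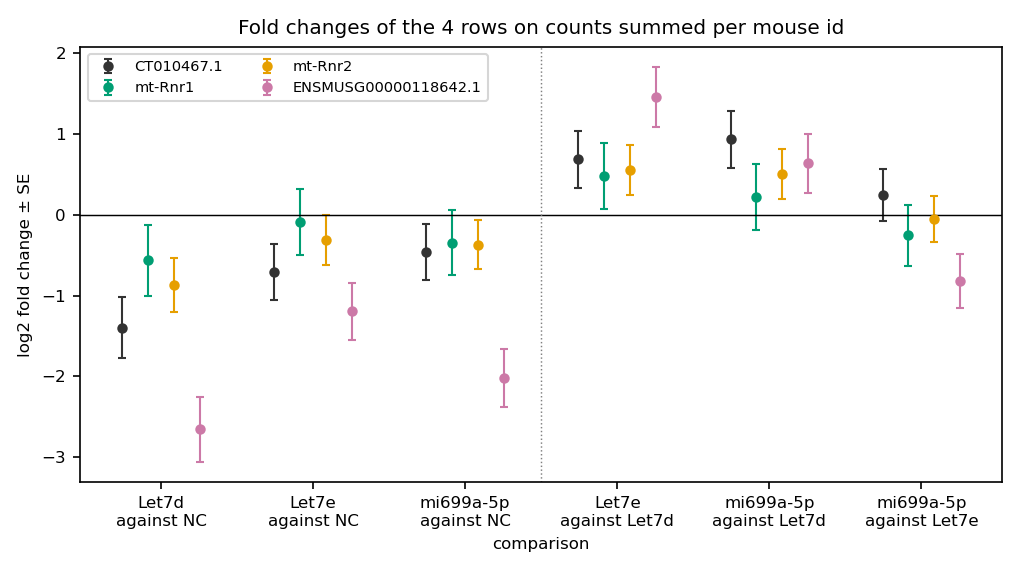
Points are log2 fold changes from the edgeR fit on counts summed per mouse id and bars are ± 1 standard error, for 4 rows in 6 comparisons. Left of the dotted line are the comparisons against NC, which chose the rows, where ENSMUSG00000118642.1 is lowest each time, at -2.65, -1.19 and -2.02. Right of it are the tested comparisons, none of which passed.

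The mitochondrial mRNAs lay above 0 beside mt-Rnr1 and mt-Rnr2 in the tested comparisons with Let7d. All 7 had a log2 fold change above 0 in Let7e against Let7d, with a median of 0.81, and all 7 in mi699a-5p against Let7d, with a median of 0.70, where the median over all rows was 0.01 and 0.02. None was called by edgeR in either, although 7 and 5 of the 7 had an unadjusted p under 0.05, as had 5.39% and 5.01% of all rows. DESeq2 called mt-Nd1 in Let7e against Let7d, with a log2 fold change of 1.23. By edgeR the mt-Nd1 value was 1.24 ± 0.26 with an adjusted p of 0.537. In mi699a-5p against Let7e, 2 of the 7 were above 0 and the median was -0.11.

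Nuclear genes whose products make and process rRNA were followed in 3 lists. RNA polymerase I and its factors had rows for 26 of 26 genes, pre-rRNA processing for 68 of 68, and mitochondrial transcription and rRNA maturation for 35 of 42. By edgeR 0 of them were called in Let7e against Let7d, in mi699a-5p against Let7d or in mi699a-5p against Let7e, where 0% of all rows were called, so nothing particular to the lists is read from this. Their list medians in those comparisons lay between -0.03 and 0.12, beside 0.01, 0.02 and 0.03 over all rows, and at an unadjusted p under 0.05 the lists held 0 to 1, 3 to 4 and 1 to 2 genes. The shares of all rows at that p were 5.39% in Let7e against Let7d, 5.01% in mi699a-5p against Let7d and 7.06% in mi699a-5p against Let7e. DESeq2 called none of these genes in those comparisons.

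In the RNA polymerase I list, Polr1b, which encodes a core subunit of the enzyme, had -0.69 ± 0.25 in mi699a-5p against Let7e (adjusted p = 0.644 by edgeR). Its log2 fold change was 0.07 ± 0.26 in Let7e against Let7d and -0.62 ± 0.26 in mi699a-5p against Let7d. Polr1a, the largest subunit, stood at -0.27 ± 0.27 in Let7e against Let7d. The initiation factor genes Rrn3 and Ubtf stood at 0.05 ± 0.18 and 0.32 ± 0.25 there.

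Among pre-rRNA processing genes in Let7e against Let7d, Fbl, the fibrillarin methyltransferase, stood at 0.28 ± 0.24 and its partner Nop56 at -0.18 ± 0.19. The nucleolar proteins Ncl and Npm1 stood at 0.30 ± 0.21 and 0.38 ± 0.18, the last with an adjusted p of 0.924 by edgeR. Among mitochondrial factors, the polymerase gene Polrmt stood at 0.28 ± 0.28 and its initiation factor genes Tfam and Tfb2m at -0.0004 ± 0.32 and -0.09 ± 0.31. The genes for rRNA maturation and mitochondrial ribosome assembly Mterf3, Mterf4, Nsun4 and Fastkd2 stood at 0.27 ± 0.38, 0.17 ± 0.36, 0.31 ± 0.71 and -0.12 ± 0.32. Lrpprc, which stabilises mitochondrial mRNAs, stood at -0.05 ± 0.28.

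Across the 81 blastomeres the mitochondrial rRNAs went together more closely than any other pair of the 4 rows. Levels were the log2 of RPM computed over the rows outside the 4, with a pseudocount of 1, centred on the mouse id mean. The Pearson correlation of mt-Rnr1 with mt-Rnr2 was 0.87 (Spearman 0.87). CT010467.1 correlated with mt-Rnr2 at 0.45 and with mt-Rnr1 at 0.18. Without Let7e wells C2 and D2 (n = 79) these were 0.28 and 0.08, and without the 5 wells high in mitochondrial rRNA (n = 76) they were 0.56 and 0.31. ENSMUSG00000118642.1 correlated with CT010467.1 at 0.31, with mt-Rnr2 at 0.15 and with mt-Rnr1 at 0.06. These are descriptions, since blastomeres share mouse ids and library preparation. Within mouse ids depth went little with any row. The correlation with the log2 reads of all other rows was -0.01 for CT010467.1, -0.14 for mt-Rnr1, -0.21 for mt-Rnr2 and 0.04 for ENSMUSG00000118642.1. Both sides were centred, so differences in depth between mouse ids or groups do not enter these values. With the genes detected, CT010467.1 correlated at 0.44 (Spearman 0.21) and ENSMUSG00000118642.1 at 0.36 (Spearman 0.21). For mt-Rnr1 and mt-Rnr2 that correlation was -0.14 and 0.04.

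Along the mitochondrial genome, the rows most like mt-Rnr1 were not its neighbours in every case. The mt-Nd2 mRNA had the highest correlation of the 7576 genes compared outside the 4 rows, 0.91 with mt-Rnr1 and 0.87 with mt-Rnr2. For mt-Rnr1 the tRNA rows mt-Tp, mt-Tq and mt-Tt followed at 0.82, 0.81 and 0.76, then Gm15266 at 0.74. For mt-Rnr2 the next were mt-Nd6 at 0.83, mt-Tp at 0.76, mt-Tf at 0.72 and mt-Nd4 at 0.71. The correlation with mt-Nd1, the gene after mt-Rnr2, was 0.34 for mt-Rnr1 and 0.52 for mt-Rnr2, and 0.59 and 0.70 without the 5 wells high in mitochondrial rRNA. Rows on opposite strands cannot be told apart where they overlap, which touches mt-Nd6 and mt-Nd5. The rows mt-Tq, mt-Tc, mt-Nd6 and mt-Tp are annotated on the minus strand. As no strand is kept, reads of long plus-strand transcripts that cross them may be counted there.

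The mt-Co1 mRNA had a correlation of -0.21 with mt-Rnr1 and 0.12 with mt-Rnr2. That value rested on the blastomeres high in mitochondrial rRNA: without those 5 wells (n = 76) it was 0.25 with mt-Rnr1 and 0.56 with mt-Rnr2. The correlation of mt-Nd2 with mt-Rnr1 was then 0.87, and that of mt-Rnr1 with mt-Rnr2 was 0.84.

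**Figure D5:**
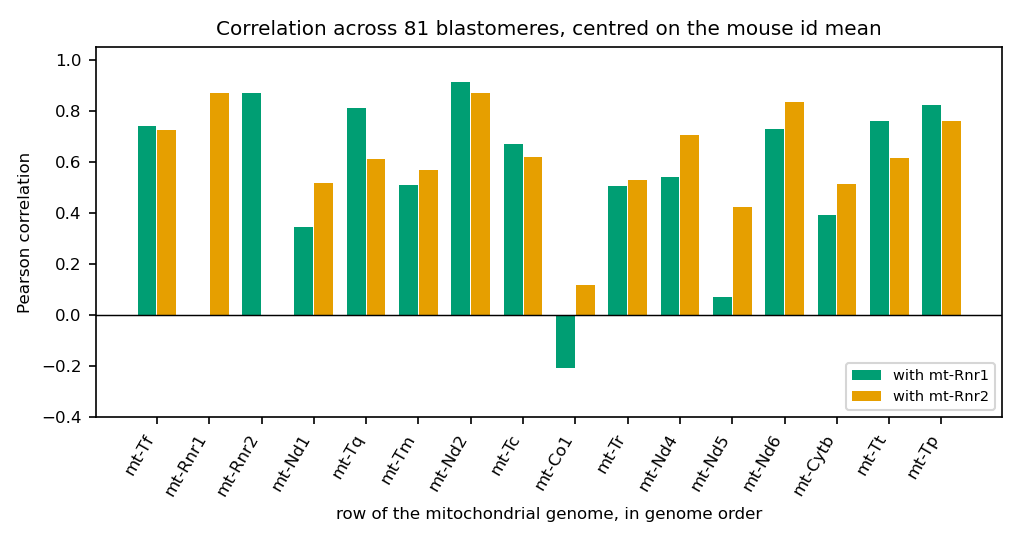
Bars give the Pearson correlation across 81 blastomeres, centred on the mouse id mean, of each row of the mitochondrial genome with mt-Rnr1 (green) and mt-Rnr2 (orange), with rows in genome order and each rRNA left blank against itself. The mt-Nd2 bars are the tallest among the other genes, at 0.91 and 0.87, and mt-Co1 is the one row below 0, at -0.21 with mt-Rnr1.

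For CT010467.1 the genes most like it were Bdp1, Mthfd1, Pdpk1, Smndc1 and Atg2b, at Pearson correlations of 0.64 to 0.58. Their Spearman correlations were 0.27 to 0.36, and without Let7e wells C2 and D2 their Pearson correlations fell to between 0.13 and 0.22, so the likeness rested on those wells. For ENSMUSG00000118642.1 they were Snhg6, Gm47283, Rxra, Tmem191c and Pspc1. Their correlations were 0.55, 0.51, 0.50, 0.49 and 0.49, and without wells C2 and D2 they were 0.56, 0.56, 0.49, 0.49 and 0.46. No gene thus came as close to ENSMUSG00000118642.1 as mt-Nd2 came to the mitochondrial rRNAs.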

How the data were processed

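The deposited table holds raw read counts per gene and blastomere, per the labels and the values. Its label also says that rows had been filtered by expression level, so genes below that filter have no row. Shares and RPM are therefore relative to the reads of the 7886 rows kept, not to all reads of a library. Per the submitters' processing notes STAR and the build GRCm38.p6 were used, and the counting program is not given in the sources used here. A table of RPKM was not used, because its values for 1 gene are not on 1 scale between cells. Of 92 labelled cells, 82 have a column and the other 10 were not analysed here. Counts were summed per mouse id (6329464 to 24037593 reads) and fitted with edgeR 4.0.16 in R 4.3.3: TMM, filterByExpr (0 rows removed, so all 4 rows stayed), 1 fit of 4 groups, quasi-likelihood F test, two-sided, Benjamini-Hochberg over 7886 rows. Errors beside fold changes are standard errors. DESeq2 1.42.0 was an alternative, beside other normalizations and filters, each mouse id left out and a replicate block. On simulated data for Let7e against Let7d over 7886 rows, 54% of rows changed by 2 on the log2 scale and 83% of those changed by 3 were recovered. With 3 or 4 mouse ids a group, p-values measure the spread between mouse ids, which may be technical. The 4 rows and all lists were chosen with earlier results of these data known. Named are the 4 rows, for each the 5 genes of highest correlation among those detected in at least 50% of blastomeres, the measured mitochondrial mRNAs, and fixed members of the other lists. Slirp, also on that list, had no row. Figures were drawn with matplotlib 3.10.9.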

Additional observations from a re-analysis of the deposited data

Results flagged for a closer look

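Values far from the others of their set were sought over the mouse ids of Let7e and mi699a-5p (14 sets) and over the blastomeres of each mouse id with 4 or more (52 sets), by the gap to the nearest value over the whole range. For normally distributed values chance sets apart about 1 in 20 sets, and here 1 and 11 were set apart, each at its high end. The values were taken without a log scale and their distribution was not tested, so these counts cannot be held against that rate. Among mouse ids, the ratio of mitochondrial rRNA to mitochondrial mRNA reads was 0.662 in mi699a-5p 1, against 0.402 in the next. For ENSMUSG00000118642.1, levels in RPM were 634 in NC well E2, 775 in NC well E3, 123 in mi699a-5p well C1, 61.9 in mi699a-5p well E3 and 39.3 in Let7d well E3. For CT010467.1, the share was 13.4% in NC well E2 and 14.02% in mi699a-5p well B2, which were the highest of 8 and 7 blastomeres. NC well E2 was thus set apart in both rows. For mt-Rnr1 it was 0.418% in Let7d well C1 and 0.367% in Let7e well H2, and for mt-Rnr2 2.08% in Let7d well C1 and 3.73% in Let7e well H1. Let7d well C1 was set apart in both mitochondrial rows.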

How the results depend on the processing

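Of 420 recomputed fold changes of the 4 rows, 10 changed sign and 3 moved in size alone. The other 407 kept their direction and, where tested, their side of the threshold. Fold changes against NC were compared in direction and size alone. The 3 that moved were those of ENSMUSG00000118642.1 against NC without NC wells E2 and E3. All 35 recomputed rRNA shares, which are group means, stayed within 1 SD. This does not show whether the ranges of mouse ids still separated. Sign changes were limited to the mitochondrial rRNAs. With a mouse id left out, mt-Rnr1 ran from -0.64 to 0.14 in Let7e against NC (0.04 without NC 2, 0.08 without Let7e 3, 0.14 without Let7e 4). It ran from -0.078 (without Let7e 1) to 0.71 in Let7e against Let7d, from -0.053 (without Let7d 3; -0.035 without mi699a-5p 1) to 0.42 in mi699a-5p against Let7d, and from -0.51 to 0.30 (without Let7e 1) in mi699a-5p against Let7e. There mt-Rnr2 ran from -0.25 to 0.32 (without Let7e 1; 0.11 without mi699a-5p 4). The cause was not tested.

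Rows called by edgeR in Let7d against NC, 1 in all, became 0 with no TMM factor, with only the 2 groups compared and without NC wells E2 and E3, and 0 to 1 with a mouse id left out. Leaving out a mouse id gave 0 to 2 in mi699a-5p against NC, 0 to 1 in Let7e against Let7d and 0 to 1 in mi699a-5p against Let7e. DESeq2 called 3 in Let7d against NC, 6 in mi699a-5p against NC, 8 in Let7e against Let7d, 8 in mi699a-5p against Let7d and 20 in mi699a-5p against Let7e. ENSMUSG00000118642.1 was among its calls in Let7d against NC and in mi699a-5p against NC. Those comparisons chose the row, so these calls are not a test of it and nothing is read from them. Without NC wells E2 and E3, chosen after seeing the data, ENSMUSG00000118642.1 in NC moved from 191 to 129 RPM. Not centred on the mouse id mean, CT010467.1 correlated at 0.34 with mt-Rnr1 and 0.61 with mt-Rnr2, and ENSMUSG00000118642.1 at 0.21 and 0.36.

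Samples of the same number did not deviate together over all rows (mean correlation 0.006 over 19 pairs, 1 over 0.1), so the number was not treated as pairing them. For the followed rows this was not settled: in Let7e against Let7d the number as a replicate block took the SE from 0.41 to 0.21 for mt-Rnr1, from 0.31 to 0.20 for mt-Rnr2 and from 0.35 to 0.26 for CT010467.1. With the number as a replicate block, edgeR called 0 rows in Let7d against NC and mt-Rnr1 in Let7e against NC was 0.0024 ± 0.22 in place of -0.09 ± 0.40. Ids numbered 3 and 4 were separate in that block, although their wells share the digit 3.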
